A study of Mus musculus with 2 samples.

Results

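The positions described here are CpG cytosines in introns, outside promoters, that carried little methylation in wt MEFs and were nearly fully methylated in βerko MEFs. MEFs are mouse embryonic fibroblasts, the wt and βerko cells were both of strain C57BL/6, and βerko cells are labelled ESR2 -/-, that is, without a working gene for oestrogen receptor β (ERβ). Methylation was measured by reduced representation bisulfite sequencing (RRBS), in which DNA is cut with MspI at CCGG and an unconverted cytosine is read as methylated. There was 1 library per genotype, made from pooled DNA of 3 batches of cells, so that every difference below lies between 2 libraries, has no replicate check, and genotype and culture cannot be told apart. No age or treatment is given for either genotype, and a methylation table cannot show whether the cells express fibroblast markers.

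The members were chosen by their own readout. A cytosine had to be below 20 % methylated in wt and above 80 % in βerko MEFs, with 5 or more reads in each library, and the authors' annotation had to place it in an intron, in no exon and in no promoter. Of 826937 cytosines covered in both libraries, 1960 met the methylation and read criteria, which is 0.237 % of them. Of these 1960 positions, 749 were intronic and outside promoters, or 38.2 % (exact 95 % confidence interval 36.1 to 40.4 %). In the gene models of GENCODE, 227082 covered positions were intronic and outside promoters, and 721 of them, or 0.318 %, met the same criterion. The opposite criterion, above 80 % in wt and below 20 % in βerko MEFs, was met by 1589 of them, or 0.7 %. Since the criterion chose the members, the gap between wt and βerko at the members themselves is a description and was not tested. The criterion did not read the values of neighbouring CpGs, of the opposite strand or of the sequence, although some neighbours and opposite cytosines are members themselves. Position was used in part, since members had to be intronic and outside promoters.

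In mammalian cells, most CpGs inside introns are methylated, while CpG islands at promoters are kept free of methylation. Unmethylated stretches in introns away from promoters often mark enhancers or alternative start sites, and methylation of such stretches is commonly found where they are inactive. Methyl groups are set by the DNA methyltransferases, and active removal proceeds by oxidation through TET enzymes and base excision by thymine DNA glycosylase. ERβ is a nuclear receptor that binds oestrogen response elements, inverted repeats of a short word.

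The sequences below are from NCBIM37 (mm9) and are shown because they span the range of surroundings in which the members lay. Capitals mark the CpGs with at least 1 member, and the sequence is the plus strand. The first is the run with the most members, in the authors' gene AW549542. The next is from the run in intron 1 of Tbx4, whose neighbours, mostly members too, differed most among members with at least 3 neighbours. Then come a pair of CpGs in intron 3 of Lhx2. After these stand single CpGs in Pitpnc1, Gbas and Dlx2. In Pitpnc1 the CpGs within 100 bp were methylated in both libraries, in Gbas both strands of the CpG were members, and in Dlx2 the neighbours were lower in βerko MEFs.
AW549542, chr5:120106964-120107108: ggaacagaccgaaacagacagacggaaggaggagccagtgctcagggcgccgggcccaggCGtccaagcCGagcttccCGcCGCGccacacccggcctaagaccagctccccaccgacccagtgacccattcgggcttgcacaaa
Tbx4, chr11:85700153-85700307: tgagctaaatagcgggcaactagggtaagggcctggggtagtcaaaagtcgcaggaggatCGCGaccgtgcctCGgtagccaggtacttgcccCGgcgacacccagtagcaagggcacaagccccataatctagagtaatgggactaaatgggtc
Lhx2, chr2:38211625-38211763: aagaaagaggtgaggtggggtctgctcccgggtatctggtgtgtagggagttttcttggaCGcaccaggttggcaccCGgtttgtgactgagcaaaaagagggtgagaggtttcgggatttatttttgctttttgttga
Pitpnc1, chr11:107177004-107177125: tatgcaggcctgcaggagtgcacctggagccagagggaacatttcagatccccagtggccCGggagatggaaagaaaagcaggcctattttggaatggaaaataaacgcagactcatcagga
Gbas, chr5:130250097-130250218: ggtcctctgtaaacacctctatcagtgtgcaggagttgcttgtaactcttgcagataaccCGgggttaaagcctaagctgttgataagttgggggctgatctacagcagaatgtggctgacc
Dlx2, chr2:71383740-71383861: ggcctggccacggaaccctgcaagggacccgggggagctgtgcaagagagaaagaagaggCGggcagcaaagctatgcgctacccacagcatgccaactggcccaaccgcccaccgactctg
The AW549542 stretch of 145 bases holds 12 CpGs, of which 5 are members, whereas the Gbas stretch of 122 bases holds no CpG besides the member.

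Members were methylated in a median of 11.1 % of the reads in wt against 91.2 % in βerko MEFs, values which the criterion fixes to a large extent. In wt, 110 members had no methylated read, at a median of only 11 reads, and in βerko MEFs 140 members had only methylated reads. Both held for 31 members. The depth had medians of 33 (wt) and 32 reads (βerko), with ranges from 5 to 259 and from 5 to 125 reads, and 446 members had at least 20 reads in both libraries. With 0 of 5 reads methylated the exact 95 % interval reaches 52.2 %, and with 0 of 33 reads it reaches 10.6 %. Molecular identifiers were not used, PCR copies of a molecule could be counted repeatedly, and all intervals cover counting error only.

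The cut-offs did not fall at a gap in the data. Among covered intronic positions of the gene models above 80 % in βerko MEFs, 210 had between 15 and 20 % in wt against 274 had between 20 and 25 %. Among those below 20 % in wt, 171 had between 80 and 85 % in βerko MEFs and 201 had between 75 and 80 %. The members nearest the wt cut-off were in Tll2 (19.8 %), Rnf165 (19.75 %) and Scube1 (19.7 %), and those nearest the βerko cut-off in Ccdc64, Macrod1 with Flrt1, and Maml3 (80.3 % each). A further 31 positions missed only the read minimum, with 4 reads in a library. One of them lay in Esr1, the gene of oestrogen receptor α, with 0 % of 4 reads in wt against 100 % of 5 reads in βerko MEFs. No member lay in Esr2 itself, where 17 covered positions averaged 66.4 % in wt against 57.6 % in βerko MEFs.

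The members with the most reads show the contrast at a depth where counting error is small. In Dok7, an activator of a muscle receptor kinase, a cytosine had 4.85 % of 165 reads methylated in wt against 82.8 % of 122 reads in βerko MEFs. In Fam116b the values were 9.92 % of 131 reads and 84.8 % of 125 reads, and the 1 other covered CpG within 100 bp had 92.98 % in wt against 96.4 % in βerko MEFs. In Gm5563 they were 5.50 % of 109 and 96.3 % of 108 reads, and there the neighbouring CpG differed too, with 11.95 % in wt against 73.9 % in βerko MEFs. Members in Scube1, Gbas, 1810041L15Rik, Park2, Crim1, Tll2 and Ppp2r2c followed in depth, with at least 91 reads in each library. In Crim1, a membrane protein that binds bone morphogenetic proteins, the neighbouring CpG differed in the opposite direction, with 86.7 % in wt against 37.2 % in βerko MEFs, while the member stood at 9.57 and 87.1 %.

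The opposite strand of the same CpG is read from separate DNA strands and was covered at 88 members. For 36 of them, the opposite cytosine was a member as well, which makes 18 CpGs chosen on both strands. Of these, the 5 with the highest smaller depth lay in Gbas, Ntsr1, Rilpl1, Ildr1 and Acvr2b. In Gbas, 12.5 % of 96 reads of the plus strand and 8.79 % of 91 reads of the minus strand were methylated in wt, against 94.6 % of 110 and 92.6 % of 94 reads in βerko MEFs. In Ntsr1, a neurotensin receptor, the strands had 0.86 and 4.76 % in wt against 91.1 and 88.3 % in βerko MEFs. In Acvr2b, a receptor for activins, they had 16.9 and 18.3 % in wt against 100 % each in βerko MEFs.

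At the remaining 52 members the opposite cytosine was covered but was not itself a member, and its values are held down by the criterion, since an opposite cytosine past both cut-offs with 5 reads would have been a member. Its median was 26.4 % in wt against 84.3 % in βerko MEFs, and the median difference was 54.1 points (range −0.57 to 91.7). The opposite cytosine was over 20 points higher in βerko MEFs at 48 of the 52. At the other 4, which were picked out after their values were seen, it was within 20 points. These were in Cacnb4 (1.85 % in wt against 1.28 % in βerko MEFs), Podn (0 and 6.06 %), Itga6 (1.85 and 18.9 %) and the overlapping Igf2 and Igf2as (28.4 and 36.4 %). In Cacnb4, Podn and Itga6 the member had at most 11 reads in wt, whereas in Igf2 it had 10.5 % of 38 reads in wt against 93.6 % of 31 reads in βerko MEFs.

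Neighbouring CpGs show whether a member stood in a changed region or alone. Of the 749 members, 513 had at least 1 other covered CpG within 100 bp. Averaged over these neighbours, methylation had a median of 55.1 % in wt against 85.6 % in βerko MEFs, and the median difference was 18.4 points (95 % interval of the median 14.6 to 22.0 points). The neighbours differed by less than 20 points at 245 members, or 47.8 % (exact interval 43.4 to 52.2 %). They were more than 60 points higher in βerko MEFs at 83 members, or 16.2 % (13.1 to 19.7 %). At 26 members they were at least 20 points lower, and at 1 of these, in the zinc transporter gene Slc39a11, over 60 points lower. The intervals treat members as separate, although members of a run share reads or neighbours. With 1 member per run within 500 bp, the share with neighbours within 20 points was 52.8 %. Neighbours can be members themselves, and without CpGs that hold any position of the deposited DMP tables (a comparison added after the data were seen) the median difference was 13.8 points over 486 members and 52.7 % had neighbours within 20 points.

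The surroundings of the members were of several kinds. In wt MEFs, the neighbours were above 80 % at 144 members, between 20 and 80 % at 262 and below 20 % at 107. At 122 members the neighbours were above 80 % in both libraries, so that in wt the member was weakly methylated among methylated CpGs. At 15 members they were below 20 % in both, so that in βerko MEFs the member was methylated among unmethylated CpGs. The 245 members with neighbours within 20 points and the 83 with neighbours over 60 points higher had similar depth, with medians of 31 and 33 reads in wt against 34 and 28 reads in βerko MEFs. The former lay in CCGG, the MspI site, in 66.5 % of cases and the latter in 51.8 %.

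**Figure D1:**
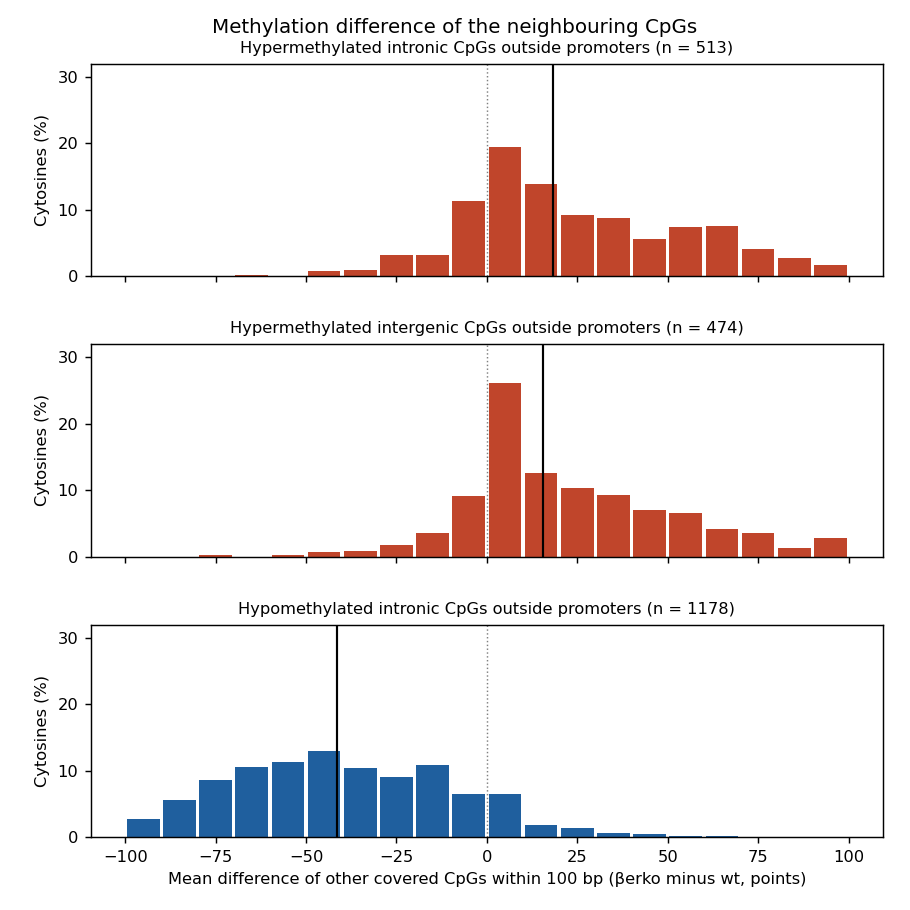
Histograms of the mean methylation difference (βerko minus wt, in percentage points, x axis) of the other covered CpGs within 100 bp, as the percentage of cytosines with such neighbours (y axis), for 3 sets; the black line is the median and the dotted line is 0. The 513 hypermethylated intronic cytosines peak between 0 and 10 points with a long tail to higher values and a median of 18.4 points, and the 1178 hypomethylated intronic cytosines are spread around a median of −41.5 points.

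The difference was largest next to the members. CpGs 1 to 10 bp from a member CpG had a mean of 39.98 % in wt against 75.5 % in βerko MEFs, a difference of 35.5 points over 160 member CpGs. Between 50 and 100 bp the difference was 12.0 points, between 500 and 1000 bp it was 6.54 points and between 5000 and 10000 bp it was 3.06 points. Around the 766 hypermethylated intergenic positions the difference was 32.9 points at 1 to 10 bp, 13.2 points at 50 to 100 bp, 17.2 points at 200 to 500 bp (8.78 points around the members), 11.9 points at 500 to 1000 bp and 2.53 points at 5000 to 10000 bp. Among those with neighbours, 51.5 % had neighbours within 20 points (46.9 to 56.1 %). Around the 1375 hypomethylated intronic positions, in contrast, the difference was −52.1 points at 1 to 10 bp and still −17.3 points between 500 and 1000 bp, and 25.6 % had neighbours within 20 points (23.2 to 28.2 %). Neighbours of nearby positions are shared within each set and can be chosen positions themselves, whose values the criterion fixed. The part of this in the differences at short distance was not tested, and neither were the differences between the sets.

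**Figure D2:**
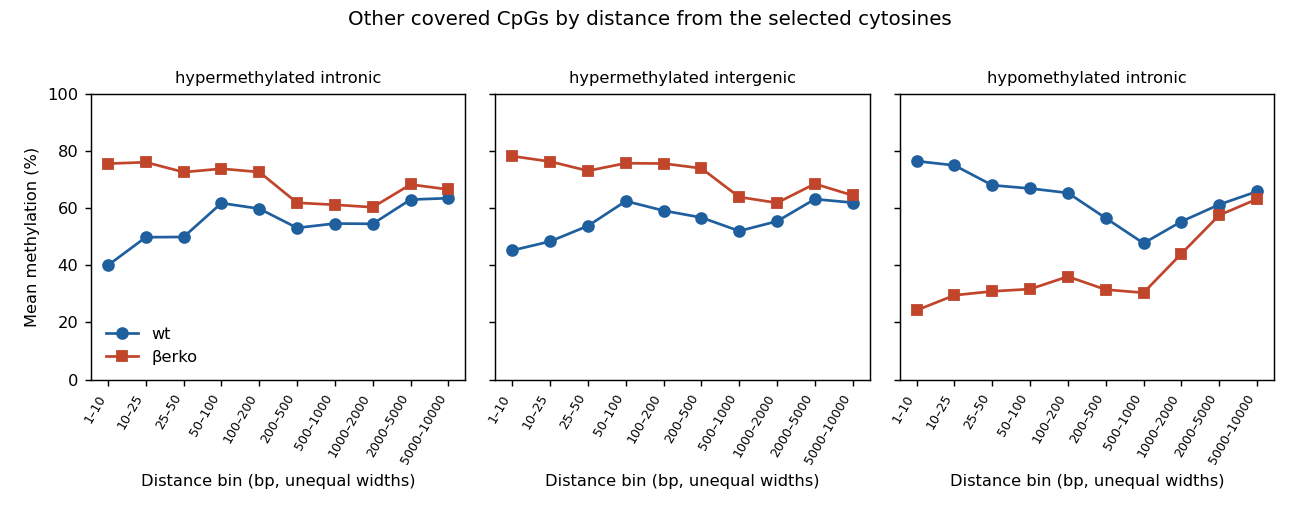
Mean methylation (y axis, %) of other covered CpGs in bins of distance from the chosen CpGs (x axis, bp, bins of unequal width), with wt as circles and βerko as squares, for the hypermethylated intronic, hypermethylated intergenic and hypomethylated intronic positions. Around the hypermethylated intronic positions the lines stand 35.5 points apart at 1 to 10 bp and 3.06 points at 5000 to 10000 bp. The other covered CpGs can be chosen positions themselves.

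Members that lie close together were joined into runs. With gaps of at most 100 bp, 51 runs of 2 or more members held 117 members, or 15.6 % (13.1 to 18.4 %), against 10.6 % of the hypermethylated intergenic (8.49 to 12.97 %) and 42.7 % of the hypomethylated intronic positions (40.1 to 45.4 %). Of the 51 runs, 15 were the opposite strands of 1 CpG and 36 spanned 2 or more CpGs. Only 10 runs had 3 or more members, in AW549542, Tbx4 (2 runs), Gm9295, Lhx2 (2 runs), Dnahc8, Ajap1, Hoxa10 and Adamts17. Members of a run on the same strand largely come from the same reads, as their equal depth shows (43, 43 and 43 reads at 3 CpGs of Tbx4), and are not separate measurements.

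The authors' annotation gave 616 genes to the members. Of these, 505 had 1 member, 88 had 2 and 23 had 3 or more. The 23 genes were chosen by this count, and their values are given as a description.

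**Figure D3:**
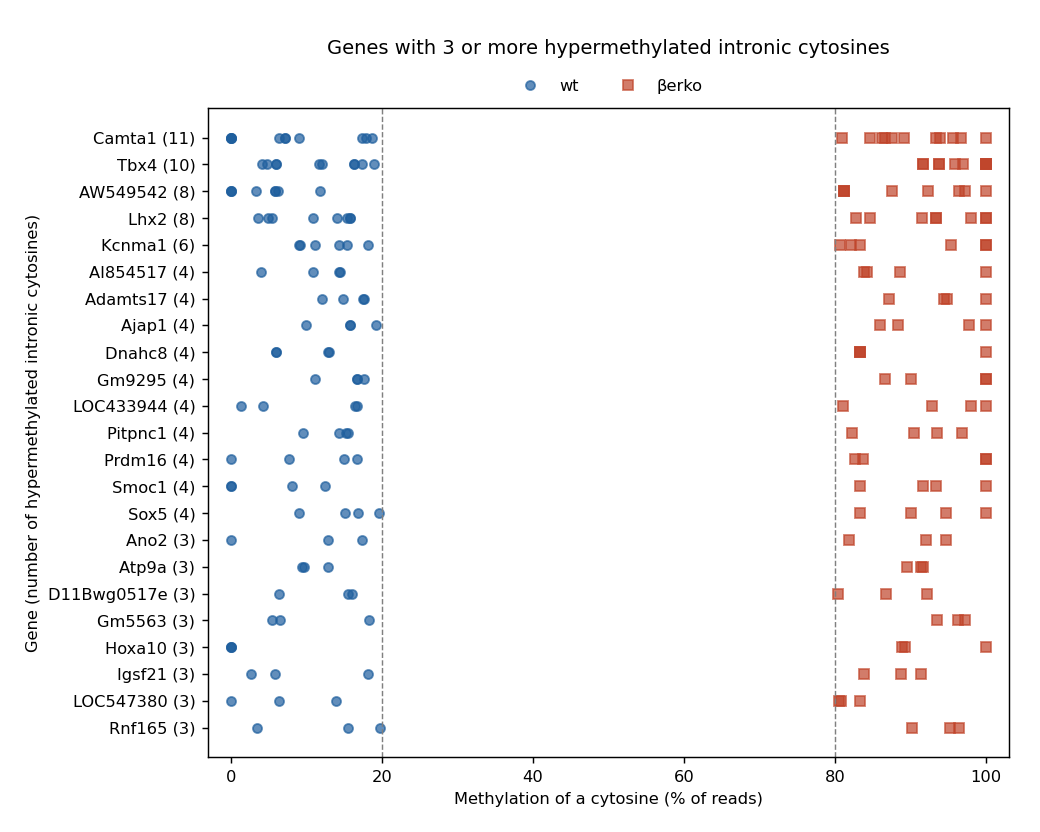
Methylation (x axis, % of reads) of each hypermethylated intronic cytosine in wt (circles) and βerko MEFs (squares) for the 23 genes with 3 or more of them (y axis, number in brackets); dashed lines mark the cut-offs of 20 and 80 %, which chose the cytosines. Camta1 had 11 and Tbx4 had 10, and some genes lie near the cut-offs (LOC547380 from 80.5 to 83.3 % in βerko MEFs) and others well inside them (Hoxa10 at 0 % in wt, with 5 to 6 reads).

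Tbx4, a T-box transcription factor of the hindlimb and the lung, had 10 members within 8594 bp, 5 in intron 1 and 5 in intron 3. The 4 members of the intron 1 run had 4.76, 16.3, 11.6 and 16.3 % of 42 or 43 reads methylated in wt, and 91.7, 95.8, 91.7 and 100 % of 24 reads in βerko MEFs. Their neighbours, mostly the other members of the run, had between 15.7 and 18.6 % in wt and between 94.8 and 96.9 % in βerko MEFs. The only neighbour that was not a member had 30.2 % in wt against 100 % in βerko MEFs. In the intron 3 run, 3 members had 6.02, 6.02 and 12.05 % of 83 reads in wt against 93.75, 100 and 96.9 % of 32 reads in βerko MEFs. The intron 1 members lay 180 to 323 bp from the start site, just downstream of the promoter window. The promoter window itself, 500 bp upstream to 100 bp downstream of each start, averaged 35.01 % in wt against 73.7 % in βerko MEFs over 17 positions, and 10 intronic positions more than 1000 bp from any member averaged 41.6 and 81.6 %. Of the 13 other covered CpGs within 1000 bp of the intron 1 run, 4 were lower in βerko MEFs, with 86.5 against 76.5 %, 89.2 against 58.8 %, 16.8 against 3.66 % and 100 against 93.9 %, the wt value first.

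Lhx2, a LIM homeodomain factor of limb and forebrain, had 8 members within 922 bp of intron 3. A pair of CpGs was covered on both strands, with 15.4, 15.8, 14.0 and 15.8 % in wt against 91.55, 93.3, 98 and 93.3 % in βerko MEFs. A run of 3 members further on had 10.9, 5.45 and 3.64 % of 55 reads in wt against 100, 84.6 and 100 % of 13 reads in βerko MEFs. The promoter windows averaged 10.1 % in wt against 31.4 % in βerko MEFs over 43 positions. Over 67 intronic positions more than 1000 bp from the members, however, methylation was 57.0 % in wt against 31.02 % in βerko MEFs, a difference in the other direction within the same gene.

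Hoxa10, a homeobox gene of the posterior body axis, had 3 members on the same reads, with 0 % of 6, 5 and 6 reads in wt against 100, 88.9 and 89.3 % of 28, 27 and 28 reads in βerko MEFs. With so few wt reads the upper bound is wide, but 21 other covered CpGs within 1000 bp averaged 1.67 % in wt, none above 20 %, and 46.1 % in βerko MEFs. Smoc1, a secreted matrix protein of limb and eye development, had 4 members in intron 1. Those at 2 neighbouring CpGs had 0 % of 14 reads in wt against 91.7 and 83.3 % of 12 reads in βerko MEFs, and the 2 others 8.16 % of 49 and 12.5 % of 16 reads in wt against 93.3 % of 30 and 100 % of 10 reads in βerko MEFs. The 3 Smoc1 members with neighbours had differences of 58.8 to 83.3 points there, and 2 of these members are neighbours of each other.

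A stretch of chromosome 5 around Tbx3 and Tbx5, both T-box factors of limb and heart, held 17 members, the highest count of any 1-Mb window. Its window had 350 covered intronic positions in the gene models. The window with Kcnma1 on chromosome 14 had 6 members and 54 such positions. Over all covered intronic positions of the gene models, 0.318 % met the criterion. By these models, 8 of the 17 members lay upstream of Tbx3 and 9 downstream, between 2419 bp and 174551 bp from the gene. Of the 9, 2 lay inside Tbx5. The authors' table assigned the 17 members to AW549542, G630008E18, LOC433944, Gm5563 and Tbx5. The members of intron 7 of Tbx5 had 0 % of 48 and 4.92 % of 61 reads in wt against 100 % of 54 and 98.6 % of 72 reads in βerko MEFs. The 5 clustered members of AW549542 had 0 to 11.8 % of 15 to 17 reads in wt against 81.25 to 100 % of 16 reads in βerko MEFs. Their opposite cytosines were less different, from 21.4 to 78.6 % in wt and from 82.8 to 100 % in βerko MEFs. The 4 members of LOC433944 had 1.43 to 16.7 % in wt against 81.0 to 100 % in βerko MEFs.

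**Figure D4:**
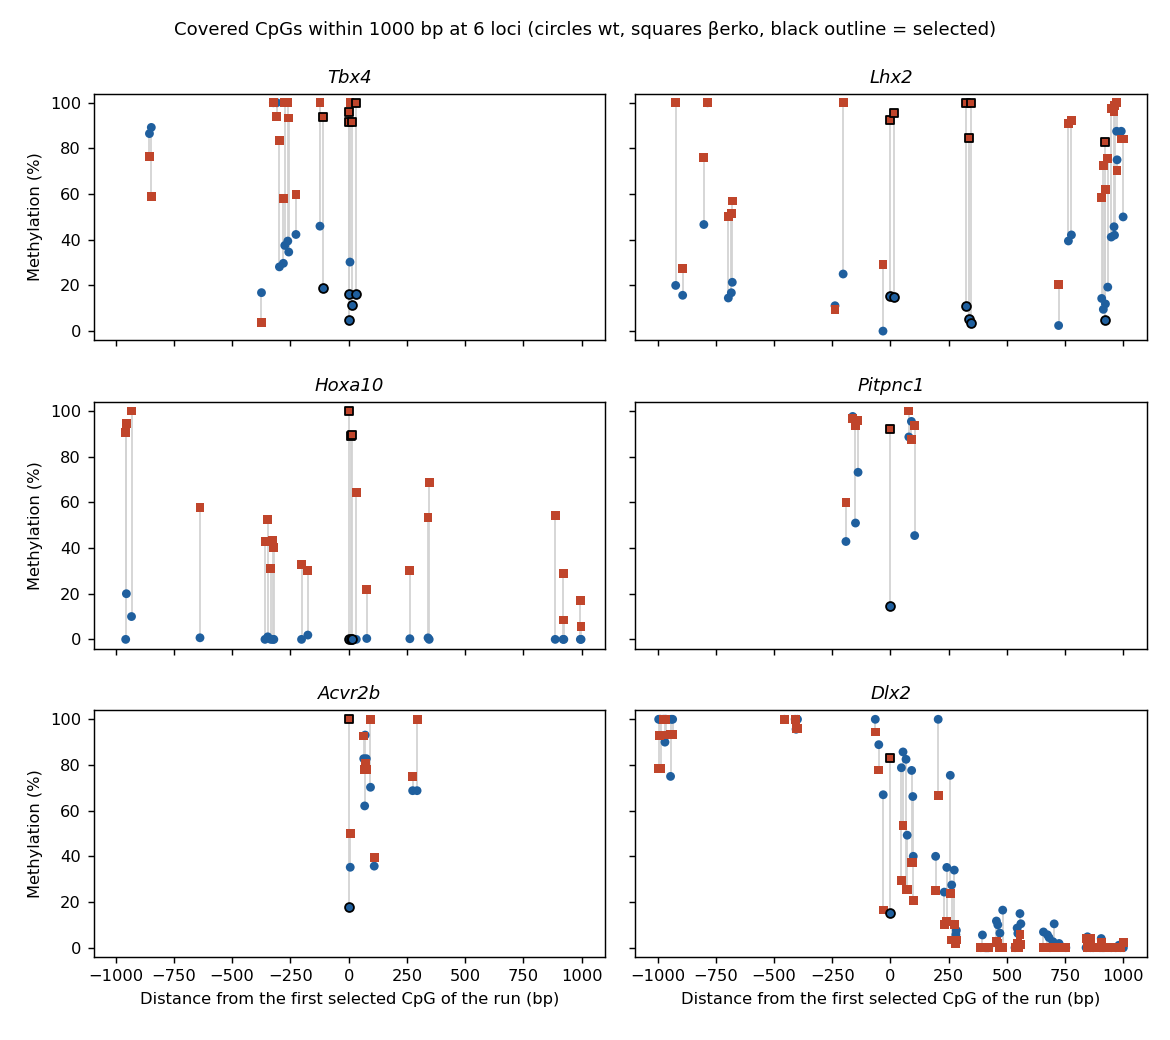
Methylation (y axis, %) of every covered CpG within 1000 bp of the chosen CpGs at 6 loci (x axis, distance in bp from the first chosen CpG of the run), with wt as circles, βerko as squares, grey lines joining the libraries and black outlines on the chosen CpGs; strands of 1 CpG were averaged. Most other CpGs were higher in βerko MEFs at Tbx4, Lhx2 and Hoxa10 (means 52.3 to 79.1 %, 34.96 to 71.02 % and 1.67 to 46.1 %), whereas at Pitpnc1 the 2 CpGs within 100 bp were highly methylated in both libraries and all 7 other CpGs had means of 70.6 and 89.6 %, and at Dlx2 the means were 36.7 and 27.6 %.

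Camta1, a calmodulin-binding transcription factor, had the most members, 11 spread over 643576 bp and at least 1 in each of the introns 3, 4, 5, 6, 10 and 11. Their wt values lay between 0 and 18.75 % of 5 to 39 reads and their βerko values between 80.95 and 100 % of 13 to 81 reads. The 9 members with neighbours had differences there from −8.41 to 54.9 points. At intron 3, for example, a member had 7.14 % of 28 reads in wt against 95.7 % of 46 reads in βerko MEFs, whereas its neighbour had 97.1 and 98.9 %. Over 373 intronic positions of Camta1 more than 1000 bp from the members, methylation averaged 59.4 % in wt against 60.7 % in βerko MEFs. Camta1 lies on chromosome 4, which also held the members of Prdm16, Ajap1, Igsf21 and Casz1.

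Pitpnc1, which encodes a phosphatidylinositol transfer protein, had members within 100 bp of CpGs that were methylated in both libraries. Both strands of a CpG in intron 3 had 15.3 % of 111 and 14.3 % of 21 reads in wt against 93.4 % of 61 and 90.5 % of 21 reads in βerko MEFs, and its neighbours had 92.0 and 93.75 %. A member in intron 1 had 15.6 % of 45 and 96.8 % of 31 reads, beside a neighbour with 97.9 and 93.6 %. The same was seen in part at Kcnma1, the large-conductance potassium channel, with 6 members over 562297 bp. Its most deeply read member had 9.18 % of 98 and 80.7 % of 88 reads, beside a neighbour with 81.5 and 85.7 %. Only 2 Kcnma1 members had neighbours. The other, at chr14:24721525, had a neighbour with 57.1 % in wt against 100 % in βerko MEFs. The gene models gave no intron for the most deeply read Kcnma1 member or for those at chr14:24655110 and chr14:24721525. Only the authors' annotation placed these in the gene. In Atp9a, a P-type ATPase, neighbours of 2 of 3 members differed by 4.09 and 6.45 points. In D11Bwg0517e, which the gene models name Rbfox3, a neuronal splicing factor, they differed by −0.41 and 14.9 points.

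In further genes of the 23, the neighbour differences covered different ranges. Sox5, a chondrogenic and neural SoxD factor, had 4 members, and the neighbour differences ran from 3.89 to 43.9 points. Prdm16, a regulator of brown fat, had 4 members in introns 1, 2 and 3, of which one had neighbours of 25 % in wt against 89.5 % in βerko MEFs, and the other two had neighbours lower in βerko MEFs (81.0 against 76.9 %, and 100 against 93.4 %), the wt value first. Its promoter windows were 69.6 % methylated in wt against 36.8 % in βerko MEFs over 12 positions. Adamts17, a secreted metalloprotease, had 4 members with differences from 14.3 to 72.3 points, the highest at a neighbour that is itself a member. The 50 bases around 1 of its CpGs occur at 2 places in the genome, so that its reads may stem from either copy. Ajap1, an adherens junction protein, ranged from −4.88 to 42.0 points. In Rnf165, a ubiquitin ligase of neurons, 3 members with 41 to 154 reads had neighbours that were 38.1 to 68.9 points higher. Of these members, 2 are neighbours of each other. In Dnahc8, an axonemal dynein, 3 members shared reads, with 6.06 to 12.9 % in wt against 83.3 % of only 6 reads in βerko MEFs. In Gm9295 the 4 members, which are neighbours of one another, had neighbours that were 61.2 to 63.0 points higher. In AI854517 the neighbours were 4.71 to 12.6 points higher. Ano2, Igsf21 and LOC547380, whose members the gene models place in Casz1, made up the rest of the 23.

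Some members had neighbours that differed in the opposite direction, and these were chosen by value. Among the 156 members with at least 3 neighbours, the lowest neighbour difference was in Dlx2, a homeobox gene of the forebrain and branchial arches. The member had 15.25 % of 59 reads in wt against 82.9 % of 76 reads in βerko MEFs, while 10 neighbours averaged 73.6 % in wt against 41.8 % in βerko MEFs. Bcor, Pax7, Hrk and 2210019I11Rik followed. At Pax7 the member had 0 % of 5 reads in wt against 94.7 % of 19 reads in βerko MEFs and its 10 neighbours had 55.8 and 34.8 %. At Hrk the neighbours had 21.7 and 0.84 % while the member had 5.88 % of 17 and 100 % of 39 reads.

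Promoter positions of the genes with members were mostly not read by the criterion, although 8 members lay in promoter windows of the gene models. Of 355 such genes with at least 5 covered promoter positions in the gene models, 316 had promoter averages within 20 points (89.0 %), 34 were at least 20 points lower in βerko MEFs (9.58 %) and 5 at least 20 points higher (1.41 %). Over all 11795 genes with such promoters, 94.5 % were within 20 points, 4.95 % were lower and 0.534 % were higher. The 5 with higher promoters were Tbx4, Lhx2, Hoxa10, Agtr1b and Wsb2. Among the lower was Serinc2, with 92.0 % in wt against 12.2 % in βerko MEFs over 9 positions. Intronic positions more than 1000 bp from the members were within 20 points in 403 of 425 genes. Of the 616 genes, 112 (18.2 %) also held hypomethylated intronic positions, which is 13.1 % of the 858 genes that held such positions. In the gene models the overlap was 90 genes, or 17.6 % of the 510 genes with members, whereas 5.00 % of all 14492 genes with covered introns held hypomethylated intronic positions. The genes with members had a median of 28 covered intronic positions against 8 over all genes, and the part of this in the overlap was not tested.

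In composition, the medians of the members were closer to those of intronic CpGs methylated in wt than of those unmethylated in wt. The criterion asks for over 80 % in βerko MEFs, and the part of this in the closeness was not tested. The members had a median of 3 other CpGs within 100 bp. The median was 18 around covered intronic CpGs below 20 % in wt and 4 around those above 80 % in wt. The GC content was 53.0 % against 69.3 and 52.5 %, and the ratio of observed to expected CpGs was 0.321 against 0.822 and 0.378. Windows with over 50 % GC and a ratio over 0.6, the composition of CpG islands, made up 8.95 % of the members (exact interval up to 11.2 %), 79.5 % of the unmethylated and 9.40 % of the methylated CpGs. The CpG lay in CCGG at 74.4 % of the members (71.1 to 77.5 %) against 29.1 and 60.5 %. Of the members with covered neighbours, 321 lay in CCGG and 192 did not. Every member without a covered neighbour lay in CCGG. Covered intronic CpGs above 80 % in βerko MEFs had a median of 4 other CpGs, 52.0 % GC and a ratio of 0.370. Of these CpGs, 7.60 % had the composition of CpG islands and 60.8 % lay in CCGG. Hypermethylated intergenic positions had nearly the same composition as the members, with a median of 3 other CpGs, 52.0 % GC and 74.2 % in CCGG. Hypomethylated intronic positions had a median of 7 other CpGs, 57.9 % GC and 54.8 % in CCGG.

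**Figure D5:**
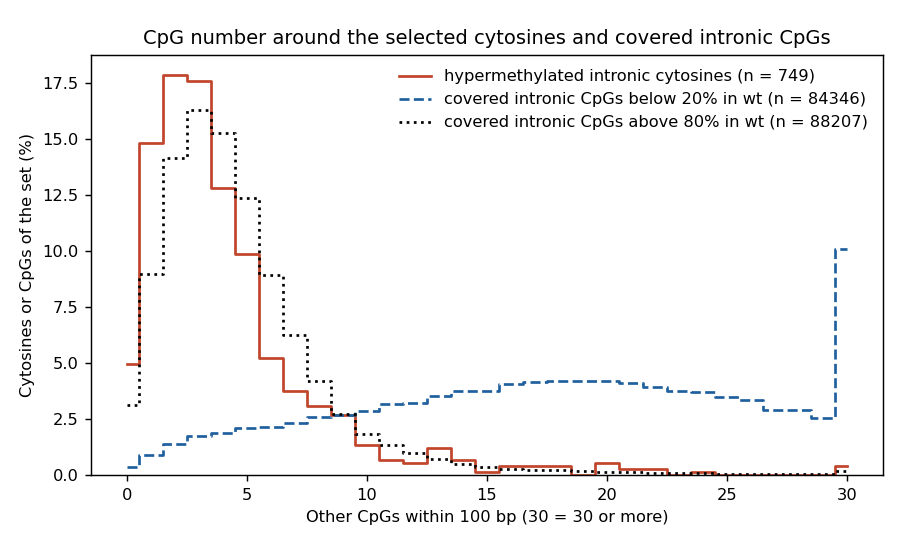
Number of other CpGs within 100 bp (x axis, 30 stands for 30 or more) as the percentage of each set (y axis) for the 749 hypermethylated intronic cytosines and the covered intronic CpGs of the gene models that were below 20 % or above 80 % in wt. The members and the CpGs above 80 % in wt have medians of 3 and 4 other CpGs, and the CpGs below 20 % in wt have a median of 18.

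Most members lay far from start sites, a distance on which the requirement of an intron outside promoters bears. The median distance to the nearest start was 11403 bp for the members. It was 430 bp for the covered intronic CpGs below 20 % in wt and 10656 bp for those above 80 %. For covered intronic CpGs above 80 % in βerko MEFs, as the members had to be, it was 11418.5 bp. Of the members, 160 lay within 2000 bp. By the gene models, 624 of the 749 members were intronic, 10 were in exons only, 8 in promoter windows (1 of them also in an exon) and 107 outside both genes and promoter windows. In the 642 with an intron in the models, 248 (38.6 %) were in the first intron of the longest matching transcript, against 86.6 % of the covered intronic positions below 20 % in wt and 30.5 % of those above 80 %, in a count over every 20th position. The median intron was 15827 bp long. Only 8 members were in an annotated repeat, 6 in B1 and 2 in L1 elements, and for 4 members the 50 bases around the CpG occurred more than once in the genome. Members were unevenly spread over the chromosomes, with 105 on chromosome 4 and 89 on chromosome 5. Members in model introns made up 5.71 of 1000 covered intronic positions on chromosome 4, 4.22 on chromosome 5 and 5.42 on chromosome X, against 1.23 on chromosome 3. Hypomethylated positions were also dense on chromosomes X and 4, with 17.6 and 11.7 per 1000.

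Words of transcription factors were searched on both strands in the 202 bases around each CpG, as a description. The single word AGGTCA of oestrogen and other nuclear receptors was found at 101 members, 13.5 % (11.1 to 16.1 %), against 12.3 % of the covered intronic CpGs above 80 % in wt against 6.72 % of those below 20 %. The full oestrogen response element with a spacer of 3 bases was found at 1 member, in Wnt9b, and at 56 of 210007 covered intronic CpGs. This member, named after its values were seen, had 7.5 % of 40 reads in wt against 81.8 % of 33 reads in βerko MEFs, and 3 neighbours had 65.2 and 99.7 %. The form with a spacer of 2 bases was found at no member. The E-box CAGCTG, bound by bHLH factors, was found at 14.2 % (11.7 to 16.8 %), against 12.4 and 9.65 %. The AP2 word GCCNNNGGC was at 11.2 %, against 9.04 and 29.6 %, and the SP1 word GGGCGG was at 8.54 %, against 8.28 and 52.1 %. AP-1 (TGANTCA, 4.27 %), RUNX (TGTGGT, 12.95 %), TEAD (GGAATG, 10.5 %) and STAT (TTCNNNGAA, 4.94 %) words were within 1 point of their share around CpGs above 80 % in wt. Members had to be above 80 % in βerko MEFs. Shares around all such covered intronic CpGs were 12.5 % (AGGTCA), 12.2 % (E-box), 8.72 % (AP2) and 7.37 % (SP1). Those of the AP-1, RUNX, TEAD and STAT words were 4.99, 14.0, 11.2 and 5.42 %.

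Groups of genes were counted in the gene models, where 510 of 14492 genes with covered introns (3.52 %) held at least 1 member and 724 (5.00 %) a hypomethylated intronic position. The groups were named by symbol patterns and were not tested. Among homeobox genes, 9 of 138 held members (6.52 %) and 26 held hypomethylated positions (18.8 %). Per 1000 covered intronic positions there were 5.19 members, against 2.75 over all genes, and 17.9 hypomethylated positions, against 5.34. The homeobox members were in Cux2, Dlx2, Dlx4, Hoxa10, Hoxb3, Lhx2, Pax1, Pax2, Pax5, Pax7 and Tshz2 by the authors' symbols, of which Pax1 has no homeodomain and was taken in by its symbol. In Pax5, a B cell factor, a member had 3.39 % of 59 reads in wt against 100 % of 64 reads in βerko MEFs. Of their 20 members with neighbours, 7 had neighbours more than 60 points higher and 4 had neighbours within 20 points, with medians of 7.99 % in wt against 72.2 % in βerko MEFs. Of these 24 members, 8 are from Lhx2 and 3 from Hoxa10, so that the group in part repeats those loci.

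Among other developmental transcription factors, 16 of 196 genes held members (8.16 %) and 32 held hypomethylated positions (16.3 %). Per 1000 covered intronic positions these genes held 5.63 members and 12.4 hypomethylated positions, against 2.75 and 5.34 over all genes. Their symbols also took in Elfn1 and Elfn2, which are membrane proteins. A member in Ebf2, a factor of fat and neural lineages, had 18.25 % of 137 reads in wt against 100 % of 62 reads in βerko MEFs. The CpG beside it, with 12.6 and 93.55 %, is a member of the same run, largely on the same reads. Gata1, Gata2 and Gata3, factors of blood cells, held 4 members together.

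Of these groups, ion channels had the highest share, with 29 of 242 genes holding members (12.0 %, 8.17 to 16.8 %) and 19 hypomethylated positions (7.85 %). Members were in 7.21 of 1000 covered intronic positions, against 2.75 over all genes. Besides Kcnma1, members were in Kcnj6, an inward rectifier channel (4.71 % of 85 reads in wt against 93.2 % of 73 reads in βerko MEFs), and in Trpc7 (11.1 % of 54 and 89.55 % of 67 reads). Of the 24 ion channel members with neighbours, 11 had neighbours within 20 points and 3 over 60 points higher.

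Adhesion and signalling genes were represented by single members for the most part. Of cadherin and axon guidance genes, 14 of 139 held members (10.1 %), or 3.29 members per 1000 covered intronic positions against 2.75 over all genes. In Cdh1, the epithelial cadherin, a member of intron 3 had 19.1 % of 68 reads in wt against 96.8 % of 63 reads in βerko MEFs, next to a CpG with 98.5 and 85.7 %. In Nav2, a guidance protein, a member had 11.5 % of 52 and 100 % of 26 reads next to a CpG with 95.9 and 96.3 %, and another had 6 and 7 reads. In Sorcs2, a sorting receptor, a member had 11.1 % of 36 and 96.3 % of 27 reads next to a CpG that was fully methylated in both libraries. Of small GTPase regulators, 16 of 172 genes held members (9.30 %), or 3.29 members per 1000 covered intronic positions, and 9 of 13 members with neighbours had them within 20 points. In Tiam1, a Rac exchange factor, a member had 15.8 % of 57 and 80.6 % of 72 reads, and 3 neighbours had 94.8 and 94.4 %. Of receptor tyrosine kinases and receptor phosphatases, 6 of 56 held members (10.7 %), or 2.50 members per 1000 covered intronic positions against 2.75 over all genes. Among these genes was Fgfr1, with 18.3 % of 60 and 92.2 % of 51 reads and a neighbour with 25.8 and 83.5 %.

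Of extracellular matrix and cell-matrix genes, 13 of 192 held members (6.77 %), or 4.98 members per 1000 covered intronic positions against 2.75 over all genes. The symbols took in Loxhd1 and Colec11, which are not matrix genes. The pair of members in Col27a1, a fibrillar collagen, had 16.0 % of 106 and 15.2 % of 46 reads in wt against 85.7 % of 63 and 92.9 % of 28 reads in βerko MEFs. Their neighbours, among which each counts the other, were 62.5 and 63.4 points higher in βerko MEFs. Solute carriers held members in 10 of 282 genes (3.55 %), such as the dopamine transporter Slc6a3 with 7.53 % of 93 and 86.9 % of 84 reads.

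The remaining groups held few members. Among nuclear receptors, Rara and Esrrb held 1 member each. The member in Rara, the retinoic acid receptor α, had 10.5 % of 57 reads in wt against 80.65 % of 31 reads in βerko MEFs, and its neighbour had 7.14 and 45.2 %. DNA methylation and chromatin enzymes had 2 of 138 genes with members (1.45 %), Chd5 and Mll2, each at 7 or fewer reads in both libraries. Wnt pathway genes had members in Wnt4 (6.52 % of 46 and 98.55 % of 69 reads) and Wnt9b, or 2 of 62 genes (3.23 %). Of TGF-beta and BMP pathway genes 1 of 60 held members, Acvr2b, described above. Of adipogenic and myogenic genes 1 of 33 held members, Prdm16.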

How the data were processed

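The authors made 1 RRBS library each of wt and βerko MEFs, with 3 batches of DNA pooled per library, MspI digestion, 160 to 340 bp fragments and 19 PCR cycles. The submitters' processing notes name CASAVA 1.4 and mm9, and mapping and annotation were made by the authors with Genomatix software whose version is not given in the sources used here. The authors deposited the percent methylation of 826937 cytosines covered in both libraries, without depth, and, for DMPs, read counts per library with gene annotation. Depth is thus known only at DMPs, and total reads per library were not used here. Each of the 826937 positions was a CpG cytosine of NCBIM37.

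Members were selected on the deposited percentages, counts and annotation. Methylated reads were recomputed as percent times reads. The members, gene lists and comparisons were chosen with earlier results of these data known. Neighbours were other covered CpGs within 100 bp with the strands of a CpG averaged, runs had gaps of at most 100 bp, and introns, start sites and promoters (500 bp upstream to 100 bp downstream) of backgrounds were from GENCODE gene models on NCBIM37. Read counts gave exact Clopper-Pearson intervals, and intervals of medians are from the binomial distribution of ranks. With 1 library per genotype no test between genotypes was made. Named were genes with 3 or more members, the 10 members with the highest smaller depth, the 5 deepest CpGs with both strands selected, up to 4 members per gene list, the 5 highest and lowest neighbour differences and the members nearest the cut-offs. Further genes, the sequences of Lhx2 and Pitpnc1 and the plotted loci were picked after their values were seen. Alternatives were tried for read minimum, cut-offs, windows, strands, chromosomes, gene models and runs. Procedures were checked on simulated data. Tools were SciPy 1.17.1, NumPy 2.4.6, matplotlib 3.10.9, pysam 0.24.0 and pandas 2.3.3 under Python 3.11.15. A result of the list of nuclear receptors and their coregulators is not reported here.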

Additional observations from a re-analysis of the deposited data

How the results depend on the processing

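The number of members, 749, was 446 with at least 20 reads and 178 with cut-offs of 10 and 90 %, and lay between 622 and 780 under the other alternatives. The median neighbour difference of 18.4 points was 25.1 points within 50 bp, 26.7 points with cut-offs of 10 and 90 %, and 13.8 points without CpGs that hold a DMP, the last chosen after seeing the data. The share of members with neighbours within 20 points, 47.8 %, was 40.2 % within 50 bp, 54.2 % within 200 bp, 58.3 % with at least 3 neighbours, 52.8 % with 1 member per run within 500 bp and 52.7 % without CpGs that hold a DMP. CpG density was 1.98 per 100 bp and 1.99 in the wider window. The share with the E-box word, 14.2 %, was 6.68 % within 50 bp and 25.2 % within 200 bp, since a shorter or longer window holds fewer or more words. Of 26 alternatives over 8 results, 13 stayed within the limits set for their result. Only the neighbour difference and the opposite strand difference have a sign, and both stayed positive. The other results are counts, shares or densities, which have no direction to reverse. Where a value moved, the cause was not tested. Depth limits members with few reads most, since 5 of 5 methylated reads allow a true level as low as 47.8 %. No paired analysis was possible because each genotype has 1 library.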
